A study of Mus musculus with 9 samples.

Results

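Germinal center B cells that had lost Foxo1 were compared with wild-type germinal center B cells across all expressed probe sets of the array. The comparison took the 3 KO arrays and the 3 WT arrays out of the 9 arrays of the series, and the 3 arrays of mice with a single floxed allele (HET) served to estimate the spread and stand beside a few values. KO mice were FOXO1f/f with Cg1-Cre, WT mice were FOXO1+/+ with Cg1-Cre, and HET mice were FOXO1f/+ with Cg1-Cre. All 3 genotypes therefore carried Cg1-Cre, a recombinase driven from the Cg1 antibody heavy chain locus, and floxed alleles could be cut only in B cells that had switched it on. All mice were 10 wk old, had been immunised with sheep red blood cells more than once, and gave their spleens at day 12. Cells were sorted from a B cell-enriched fraction as B220hi, PNAhi and CD95hi. The sample labels give 1 animal per array, whereas the design text speaks of pooled spleen cells; the p-values below measure the spread between these samples.

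FOXO1 is a forkhead transcription factor that binds DNA directly and is kept out of the nucleus when PI3K and AKT are active. In B cells PI3K is switched on downstream of the antigen receptor, so FOXO1 activity is high where that signal is weak. Germinal centers are divided into a dark zone, where B cells divide and mutate their antibody genes, and a light zone, where they meet antigen and T cells. Loss of FOXO1 is known for its effect on this zonation; the genes described here are mainly those outside the usual zone markers.

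The deposited values are MAS5 signals, a linear intensity with 1 value per probe set and array. A probe set was kept as expressed when it reached its array's median on at least 3 of the 9 arrays, and 23344 of 45037 probe sets were kept: 19479 with 1 gene symbol, 3273 with none and 592 with several. The kept probe set with 1 symbol and the highest mean stood for a gene, which gave 10331 genes. Changes are KO minus WT on the log2(signal + 2.09) scale, which understates the change of dim genes, and a gene or probe set was called changed at a limma adjusted p under 0.05. Pearson correlations of log2 signals were 0.9831 to 0.9887 between WT arrays, 0.9779 to 0.9836 between KO arrays and 0.9703 to 0.9782 between a WT and a KO array. The median SD of log2 signals over kept probe sets was 0.129 in WT and 0.157 in KO (n = 3 each). Xist, whose level follows the animal's sex, was low on WT replicate 1 (34.16) and KO replicate 3 (40.78). It gave 6828 to 8322 on the other WT and KO arrays, and in HET 23.2, 66.13 and 7737. Each group thus mixed both levels, and the highest WT to KO correlation, 0.9782, joined the 2 arrays of low Xist. A block for Xist level in the fit gave 1866 changed probe sets against 1785 without it.

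The sorted cells carried B cell and germinal center transcripts in both groups. The summed signal of the 10 pan B cell genes on the array ran from 62485 to 67862 in WT and from 66688 to 68237 in KO, and that of the 13 germinal center B cell genes from 66205 to 72016 and from 64393 to 66097. The germinal center sums were lower on every KO array than on any WT array, while the pan B cell sums overlapped. Of the 13 germinal center genes 1 rose and 3 fell (30.8% called, against 9.72% of all genes). That list had 2 calls without WT replicate 3 or KO replicate 3. Gcsam gave 3598, 3650 and 4061 in WT and 1398, 1545 and 1452 in KO. The 18 T cell markers summed to between 555 and 678 in WT and between 422 and 559 in KO. The 26 myeloid markers summed to between 886 and 1999 in WT and between 2713 and 3615 in KO, so the groups did not overlap, on a low total. Of these 26 markers, 16 lay below the array median on all WT arrays and 15 on all KO arrays. In both groups these included the neutrophil genes Mpo, Ngp and Csf3r. The neutrophil genes S100a8 and S100a9 gave 97.4 and 159 on WT replicate 1, above its median of 44.8. S100a9 also gave 53.1 and 48.9 on KO replicates 1 and 2, just above their medians of 47.4 and 47.6. Of the 11 markers that passed the filter, Tyrobp, Lyz2 and Cd68 rose and none fell, a count of 3 that was 6 without WT replicate 1 and 1 without WT replicate 3. The call of Lyz2 (1.78, adjusted p = 0.0192) was lost without WT replicate 2, WT replicate 3, KO replicate 1 or KO replicate 3, with adjusted p up to 0.0883 over all alternatives, and that of Cd68 without WT replicate 3 (0.0508). Tyrobp, an adaptor of activating receptors, gave 99.0, 90.8 and 63.6 in WT and 304, 274 and 265 in KO. The macrophage complement gene C1qb (2.21, adjusted p = 0.0953) and Lyz1 (2.13, adjusted p = 0.0581) did not pass. Dendritic cell markers summed to between 2602 and 2812 in WT and between 3301 and 3378 in KO. Of these 12 markers, 7 lay below the array median on all WT arrays and 6 on all KO arrays. The largest signals in the sum were of Ly6d, Sirpa and Flt3. Ly6d gave 1014, 1305 and 1230 in WT and 1340, 1604 and 1616 in KO. Sirpa gave 611, 536 and 521 in WT and 986, 794 and 842 in KO. Flt3 gave 633, 622 and 568 in WT and 668, 471 and 591 in KO. Stromal markers summed to between 485 and 621 in WT and between 640 and 790 in KO. The part of these markers in the changes below was not tested, and in sorted bulk samples fewer cells of a type and less RNA per cell cannot be told apart.

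The targeted gene was read by 4 kept probe sets. The brightest gave 5432, 5300 and 5616 on the WT arrays and 983, 1392 and 727 on the KO arrays, a change of -2.45 (SE 0.16, adjusted p = 3.09e-06). The next 2 fell by 2.52 and 2.64, and the groups did not overlap on any of these 3. The fourth was dim, with 44.0, 53.1 and 55.6 in WT and 71.7, 54.6 and 81.4 in KO, and did not pass (0.42, adjusted p = 0.328). Which of the 4 lies in the floxed segment was not analysed here, and a probe set outside it does not check the deletion.

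Of the 23344 kept probe sets, 1785 changed (7.65%), 924 upward (3.96%) and 861 downward (3.69%). Of the 10331 genes, 1004 changed (9.72%), 495 upward (4.79%) and 509 downward (4.93%), and 117 of the rises and 101 of the falls were over 2-fold. The balance between rises and falls differed between signal classes, a difference that was not tested. Among genes below the array median on average 6 rose and 8 fell. Among genes at 1 to 8 times the array median 169 rose and 89 fell, between 8 and 64 times 247 rose and 274 fell, and above 64 times 73 rose and 138 fell. The median absolute log2 change of called genes was 1.53, 0.99, 0.54 and 0.30 in these 4 classes. The direction of small changes also depended on the scaling: 51.8% of called probe sets were higher in KO as deposited, 44.9% after quantile normalization, 36.2% with each array centred on the median of the kept probe sets and 20.7% with each array centred on the median of all probe sets. The last of these, called centred arrays from here on, moved the median log2 change of all genes from 0.011 to -0.11. Leaving out WT replicate 2, WT replicate 3 or KO replicate 2 lowered the number of changed probe sets from 1785 to 982, 976 and 1158.

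**Figure D1:**
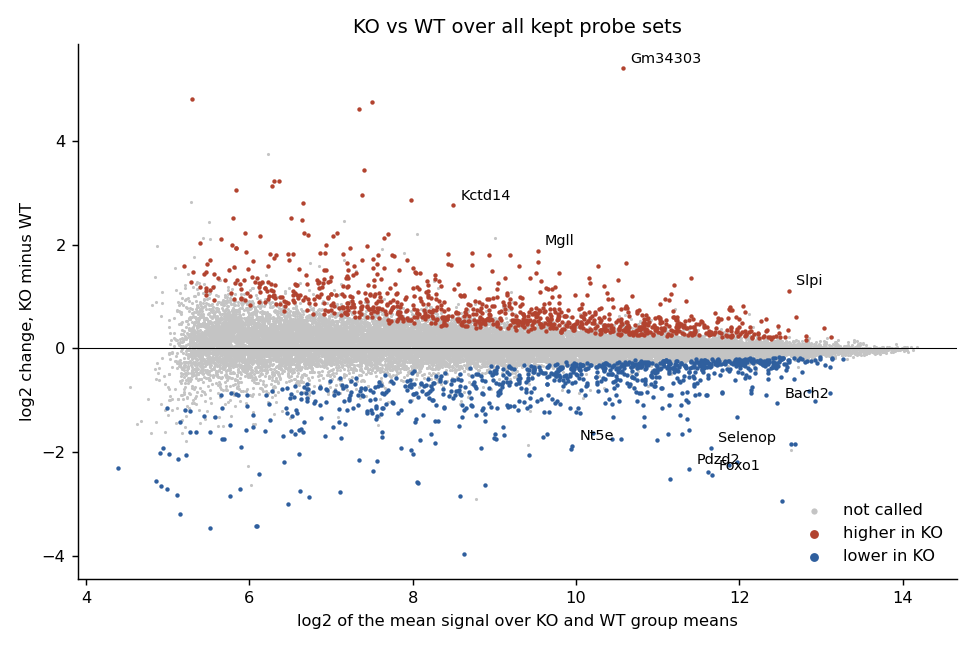
Each point is 1 of the 23344 kept probe sets, with the log2 of the average of the KO and WT mean signals on the x axis and the log2 change, KO minus WT, on the y axis; red points rose, blue points fell and grey points did not pass at an adjusted p under 0.05. Gm34303 stands at 5.40. The median absolute change of called genes is smaller in brighter classes, though some bright probe sets fell far, such as Foxo1 by 2.45 and 1427869_at of Ighm by 1.85.

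KO and WT arrays did not overlap for 29.7% of all genes and 26.5% of all probe sets. They did not overlap for 689 called genes with a mean signal of at least 359, here called bright, 298 of them higher and 391 lower. Among these, the largest falls after Foxo1 follow. Selenop, which encodes the secreted selenoprotein that carries selenium between tissues, gave 4933, 4913 and 5261 in WT and 1305, 1828 and 993 in KO (change -1.92, SE 0.17, adjusted p = 2.95e-05). Nt5e, the surface enzyme CD73 that turns AMP into adenosine, gave 1563, 1467 and 1628 in WT and 414, 505 and 356 in KO (change -1.88, SE 0.12, adjusted p = 1.63e-06). Parm1, a mucin-like membrane protein, gave 1423, 1518 and 1728 in WT and 348, 383 and 481 in KO (change -1.95, adjusted p = 3.52e-06). In each of these every KO array lay below every WT array, as the rule that chose them required. Reln, a secreted glycoprotein best known from neuronal migration, fell by 2.07, and Pde2a, which breaks down cyclic nucleotides, by 1.93. Ptgr1, a reductase of prostaglandin and leukotriene metabolites, fell by 1.76 and the glutathione transferase Gstt1 by 1.68. Gcnt3, which branches O-linked glycans, gave 1347, 1208 and 1020 in WT and 336, 398 and 349 in KO (change -1.71, adjusted p = 3.61e-06). Lmo4, an adaptor of LIM-domain transcription complexes, fell by 1.74 and Ifit1bl1, a member of the IFIT family, by 1.75. Pdzd2, a PDZ-domain protein, gave 4743, 4032 and 4249 in WT and 1876, 661 and 508 in KO (change -2.33, SE 0.39), with KO replicate 1 well above the other KO arrays; its adjusted p of 0.00349 became 0.0569 with robust eBayes.

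The largest bright rises were between 1.31 and 2.76 on the log2 scale. Mgll, the monoacylglycerol lipase that degrades the endocannabinoid 2-arachidonoylglycerol, gave 299, 303 and 338 in WT and 1346, 941 and 1216 in KO (change 1.88, SE 0.14, adjusted p = 6.53e-06). Kctd14, of the KCTD family of BTB-domain proteins, gave 87.7, 70.1 and 121 in WT and 673, 662 and 555 in KO (change 2.76, SE 0.24, adjusted p = 2.48e-05). Tle3, a Groucho-type corepressor, gave 1633, 1587 and 1359 in WT and 4257, 3674 and 3774 in KO (change 1.35, adjusted p = 4.51e-06). All 3 were higher on every KO array than on any WT array, as the rule that chose them required. Ackr2, a decoy receptor that removes inflammatory chemokines, gave 818, 804 and 898 in WT and 2148, 2032 and 2083 in KO (change 1.31). Ffar2, a receptor for short-chain fatty acids, rose by 1.36, and Cd36, a scavenger receptor that takes up fatty acids and is also made by macrophages, rose by 1.46. Rasgef1b, an exchange factor for small GTPases, rose by 1.59 and the focal adhesion protein Tns3 by 1.84. Trim7, a ubiquitin ligase, rose by 1.35, Kbtbd11, a BTB and kelch protein, by 1.45, the endoplasmic reticulum membrane protein Ckap4 by 1.80 and the radial spoke gene Rsph1 by 1.66.

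**Figure D2:**
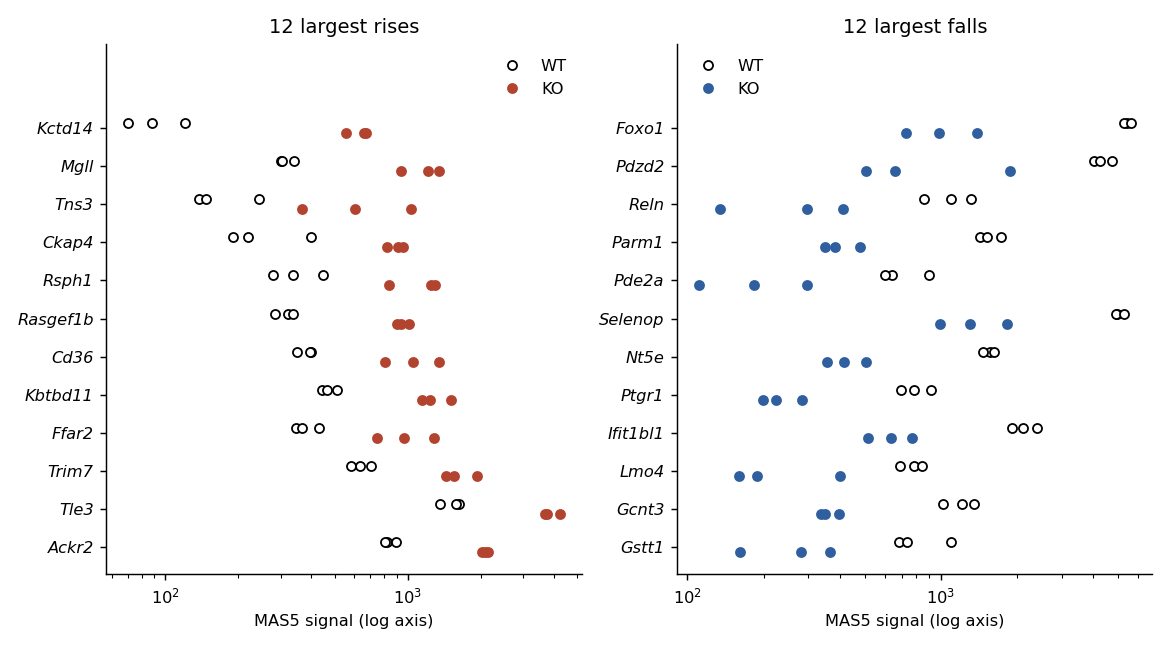
MAS5 signal on a log axis for the 12 largest rises (left) and 12 largest falls (right) among bright genes with separate groups; open points are the 3 WT arrays and filled points the 3 KO arrays. The KO arrays spread more than the WT arrays for Pdzd2 and Tns3, and lie close together for Ackr2 and Rasgef1b.

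Since FOXO1 binds DNA, the promoters of the tested genes were read for the forkhead letters TGTTTAC on both strands, in RefSeq promoters of GRCm38.p6 from 250 bases before to 50 after the start site. The letters stood in 283 of 10734 promoters of tested genes (2.6%), in 2.3% of promoters of genes that rose and 3.2% of those of genes that fell, and in 3.6% of all promoters of the table. Of the other letters read, the E2F letters TTCCCGC stood in 8.5% of tested promoters, 6.7% of rises and 8.8% of falls, the ETS letters AGGAAGT in 9.2%, 12.3% and 9.2%, the E-box CACGTG in 10.3%, 9.8% and 7.9%, and the NF-Y letters CCAAT in 38.1%, 30.3% and 36.3%. None of these letter strings contains another, and the shares were not tested. The FOXO letters were present in 1 promoter of Selenop (chr15:3270727-3271026, plus strand), which fell, and in 1 promoter of Mgll (chr6:88724162-88724461, plus strand), which rose. Both are shown because they belong to bright genes that moved in opposite directions; capitals mark the match, which reads on the minus strand in each.
Selenop: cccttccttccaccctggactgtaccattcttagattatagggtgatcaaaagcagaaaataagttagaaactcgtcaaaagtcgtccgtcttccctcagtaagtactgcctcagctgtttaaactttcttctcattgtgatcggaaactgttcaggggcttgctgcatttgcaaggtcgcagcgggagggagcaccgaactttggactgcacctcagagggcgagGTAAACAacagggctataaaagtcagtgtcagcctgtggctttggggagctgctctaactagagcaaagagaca
Mgll: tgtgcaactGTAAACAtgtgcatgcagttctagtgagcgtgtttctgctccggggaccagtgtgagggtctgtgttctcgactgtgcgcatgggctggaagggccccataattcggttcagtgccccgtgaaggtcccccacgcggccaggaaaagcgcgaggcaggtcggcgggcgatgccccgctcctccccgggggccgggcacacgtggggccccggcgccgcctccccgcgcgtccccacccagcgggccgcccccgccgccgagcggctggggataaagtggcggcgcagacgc
The match lay 24 bases before the start site in the Selenop promoter and 241 bases before it in the Mgll promoter.

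Function lists were then read against the shares of all genes, 4.79% higher and 4.93% lower, with a median log2 change of 0.011. Across the 61 lists, 1911 different genes were tested and 288 of them changed, 15.1% against 9.72% of all genes. The lists were written with earlier results of these data known, so a share above that of all genes is partly built in. Among lists with at least 8 tested genes, the highest shares changed were 53.3% of marginal zone genes, 4 of 8 purine and adenosine genes and 47.6% of plasma cell genes, and none changed in the lists of secretory traffic, ribosome biogenesis, interferon response and MHC class I and II presentation.

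**Figure D3:**
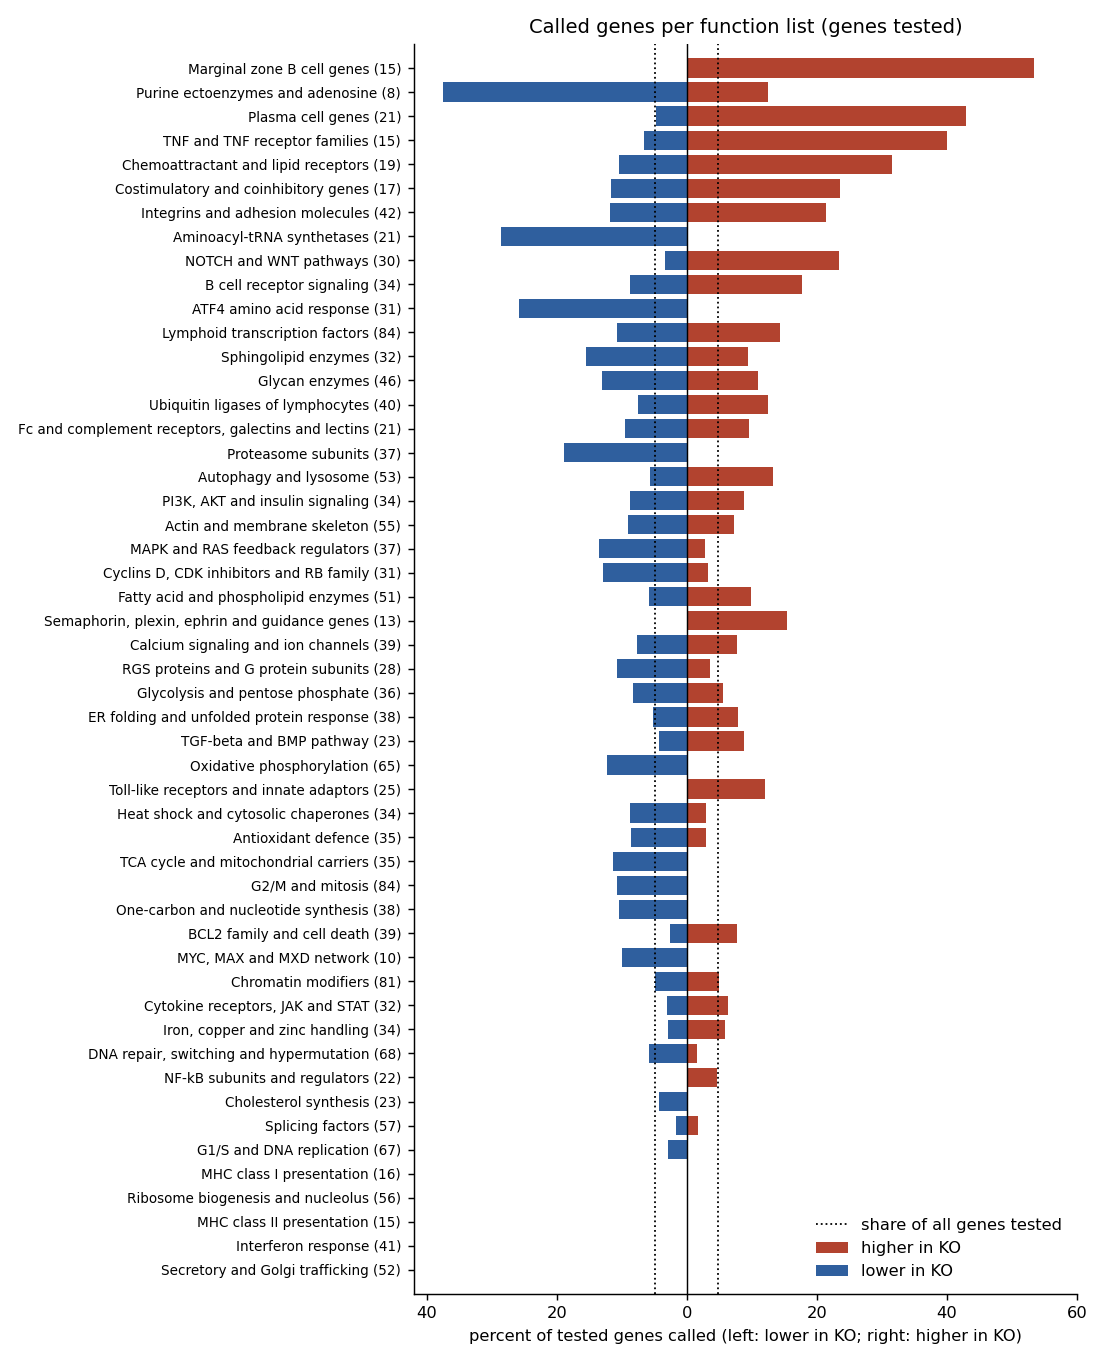
Percent of tested genes that rose (red, right) or fell (blue, left) in KO in the function lists shown, which have at least 8 tested genes; the number tested stands in brackets and dotted lines mark the shares of all genes tested, 4.79% and 4.93%. The synthetase, ATF4, proteasome, oxidative phosphorylation and mitosis lists hold falls and no rises, and the marginal zone list holds rises and no falls.

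In signaling, several regulators that hold back the MAPK cascade fell. Of 37 tested MAPK and RAS regulators 1 rose and 5 fell. Dusp6, the phosphatase that turns off ERK, gave 1328, 1339 and 1357 in WT and 657, 654 and 511 in KO (change -1.15, SE 0.10, adjusted p = 3.23e-05). Dusp4, a nuclear phosphatase of the same family, fell by 1.72, and Dgka, which removes the RAS activator diacylglycerol, by 0.56. Dusp16, which acts on JNK and p38, was higher (0.36, adjusted p = 0.00694; adjusted p = 0.0569 with centred arrays). Spred2, an inhibitor of RAS to RAF signaling, fell by 0.88.

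The PI3K pathway changed in both directions, with 3 of 34 tested genes higher and 3 lower. Pik3cg, a catalytic subunit of PI3K, gave 1987, 1861 and 1900 in WT and 3177, 2671 and 2714 in KO (change 0.57, adjusted p = 6.53e-04), and Pik3ap1, the adaptor that ties PI3K to the antigen receptor complex, rose by 0.42. Insr, the insulin receptor, fell by 1.01 (adjusted p = 0.0156), a call lost without WT replicate 2 or WT replicate 3 (adjusted p up to 0.0746). Akt1 fell by 0.34 and Trib2, a pseudokinase, by 0.35; both calls were lost when all probe sets of a gene were averaged, with adjusted p up to 0.0943 for Akt1 and up to 0.397 for Trib2. Of 34 antigen receptor signaling genes 6 rose and 3 fell, which became 1 and 4 with centred arrays, 1 and 3 with arrays centred on the kept probe sets, and 1 call in all by eBayes without trend. Themis2, a scaffold of receptor signaling, gave 1098, 1144 and 1032 in WT and 2086, 2498 and 2040 in KO (change 1.01, adjusted p = 3.54e-04), and the other 8 that passed moved by less. That list had 2 to 5 calls when 1 array was left out (2 without WT replicate 1, 3 without WT replicate 2 or KO replicate 1, and 5 without any of the others).

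Receptors and ligands of the TNF family rose more often than they fell, with 6 of 15 tested genes up and 1 down (median 0.40). With centred arrays or arrays centred on the kept probe sets 4 were up and 1 down, and eBayes without trend gave 3 calls in all. Tnfrsf13b, the receptor TACI, gave 2682, 2691 and 2841 in WT and 4145, 3941 and 4270 in KO (change 0.59, SE 0.061, adjusted p = 9.60e-05). Tnfsf9, the ligand of 4-1BB, rose by 0.55 and Lta by 0.61 (adjusted p = 0.0125; 0.0596 by eBayes without trend), while Ltb, which pairs with Lta, gave 1032, 1088 and 972 in WT and 637, 669 and 714 in KO (change -0.61, adjusted p = 0.00115). The TACI and Ltb groups did not overlap, in opposite directions. Of the 30 NOTCH and WNT genes 7 rose and 1 fell (5 and 3 with centred arrays), and changes over the list ran from -2.86 to 1.63. The rises included the NOTCH target Hes1 (1.21), the NOTCH regulator Dtx1 (0.47) and the WNT coactivator Bcl9 (0.80). That list had 5 calls without WT replicate 1, KO replicate 1 or KO replicate 2. Of 23 genes of the TGF-beta and BMP pathway 2 rose and 1 fell (2 and 5 with centred arrays). Tgfbr1, the type I receptor, gave 4133, 4258 and 3719 in WT and 1934, 2322 and 2238 in KO (change -0.90, adjusted p = 2.67e-05), and Id2, an inhibitor of E proteins, gave 600, 770 and 672 in WT and 1782, 1550 and 1536 in KO (change 1.25, adjusted p = 2.21e-05).

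Of 39 calcium and channel genes 3 rose and 3 fell. Kcnn4, a calcium-activated potassium channel that sustains calcium entry in lymphocytes, gave 4458, 4311 and 4810 in WT and 2483, 2869 and 2197 in KO (change -0.85, adjusted p = 1.91e-04). Ppp3cc, a calcineurin catalytic subunit, fell by 0.54 and the calcium channel Cacna1e by 1.62, while Kcnk5 rose by 0.65. Of 25 Toll-like receptor genes 3 rose and none fell, with Ly96, the partner of TLR4, at 0.58. Of 22 NF-kB genes 1 rose (and 1 also fell with centred arrays): Tnip1, which restrains NF-kB, gave 1565, 1767 and 1472 in WT and 2590, 2290 and 2272 in KO (change 0.58, adjusted p = 0.00154). The inhibitor Nfkbia did not pass (-0.095, adjusted p = 0.30). Of 32 cytokine receptor, JAK and STAT genes 2 rose and 1 fell (2 and 5 with centred arrays), with Stat4 falling by 0.67 and Socs5 rising by 0.89. The share called, 9.38%, was near the 9.72% of all genes. Il10ra, a chain of the interleukin 10 receptor, gave 0.73 (adjusted p = 0.0262), a call lost without WT replicate 2, WT replicate 3, KO replicate 1 or KO replicate 2, and -0.19 when its probe sets were averaged (adjusted p up to 0.84). The count for that list was 5 without KO replicate 3.

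Genes of cell movement changed at several levels. Of 19 tested receptors for chemoattractants and lipids 6 rose and 2 fell (median 0.39). S1pr3, a receptor for sphingosine 1-phosphate, gave 2878, 2568 and 2815 in WT and 5356, 4321 and 4684 in KO (change 0.79, adjusted p = 1.04e-04), whereas S1pr4 gave 432, 464 and 384 in WT and 215, 196 and 287 in KO (change -0.88, adjusted p = 0.00324). The related S1pr2, which confines germinal center B cells, did not pass (0.036, adjusted p = 0.740). The chemokine receptor list held 4 and 5 calls without WT replicate 2 and WT replicate 3. Downstream, Rgs10, which shortens G protein signals, rose by 0.56, the G protein subunit genes Gnaz and Gng10 fell by 1.16 and 0.46, and Rgs13 fell by 0.25, a call lost without WT replicate 2, WT replicate 3, KO replicate 1 or KO replicate 3 (adjusted p up to 0.0993 over all alternatives).

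Of 55 genes of actin and the membrane skeleton 4 rose and 5 fell. Coro2b, a coronin, gave 289, 364 and 286 in WT and 852, 692 and 687 in KO (change 1.25, adjusted p = 1.52e-04), and Add3, an adducin of the membrane skeleton, gave 2693, 2889 and 2414 in WT and 1663, 1617 and 1415 in KO (change -0.77, adjusted p = 1.58e-04). Dlg5, a scaffold of cell polarity, fell by 2.37. The count for actin genes was 5 without KO replicate 2.

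Adhesion molecules changed in both directions, with 9 of 42 higher and 5 lower; with centred arrays 4 were higher and 8 lower, and with arrays centred on the kept probe sets 4 and 6. Cd2, an adhesion receptor of the CD2 family, gave 2828, 3151 and 2812 in WT and 1348, 1314 and 1272 in KO (change -1.16, SE 0.065, adjusted p = 8.06e-07). Slamf7, of the SLAM receptors within that family, fell by 0.77. Itgb3, an integrin beta chain, fell by 0.90. The tetraspanin Tspan32 rose by 0.81 (adjusted p = 6.02e-04; 0.133 without probe sets shared between genes). The list had 9, 6 and 9 calls without WT replicate 2, WT replicate 3 and KO replicate 2. Of 13 guidance genes 2 rose: Sema7a, a semaphorin, gave 3020, 2840 and 2546 in WT and 4790, 4322 and 5041 in KO (change 0.75, adjusted p = 8.82e-05), and Plxnc1, a plexin, 1529, 1588 and 1592 in WT and 2304, 2266 and 2089 in KO (change 0.50, adjusted p = 0.00351). Plxnc1 is the known receptor for Sema7a, and both rose with separate groups.

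Several enzymes that use or make ceramide changed. Of 32 tested, 3 rose and 5 fell, and 6 or 7 were called when 1 array was left out. With centred arrays or arrays centred on the kept probe sets 1 rose and 5 fell. Cerk, which phosphorylates ceramide, gave 1465, 1551 and 1450 in WT and 531, 613 and 741 in KO (change -1.25, SE 0.12, adjusted p = 6.31e-05). Ugcg, which makes glucosylceramide, fell by 0.62, and Sgms1, which makes sphingomyelin, by 0.56. Cers6, which makes ceramide, gave 1689, 1868 and 1960 in WT and 2653, 3099 and 2690 in KO (change 0.61, adjusted p = 0.00109). Degs1, the desaturase before ceramide, did not pass (-0.002, adjusted p = 0.990). Asah2, a ceramidase, which breaks ceramide down, and Neu1, a sialidase of the lysosome, also fell, by 0.69 and 0.61; averaging its probe sets ended the call of Neu1 (adjusted p = 0.274).

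Fatty acid and phospholipid genes also changed in both directions, with 5 of 51 higher and 3 lower (4 and 5 with centred arrays), and 5 calls in all without WT replicate 2 or WT replicate 3. Pafah1b3, a subunit of an enzyme that degrades platelet-activating factor, gave 3217, 3616 and 3706 in WT and 1390, 1410 and 1513 in KO (change -1.29, SE 0.069, adjusted p = 4.72e-07). Pld4, a lysosomal nuclease of the phospholipase D family, gave 1926, 1890 and 1582 in WT and 3487, 3249 and 3468 in KO (change 0.92, adjusted p = 8.89e-05), and Agpat4, which acylates lysophosphatidic acid, rose by 0.90. The cholesterol synthesis list gave 1 call of 23, a fall in Hsd17b7 of 0.41 (adjusted p = 0.0463), and none without any one of the 3 WT arrays; the call of Hsd17b7 was also lost without KO replicate 2 or KO replicate 3 (adjusted p up to 0.149). Hmgcs1, an early enzyme of the route, did not pass (-0.022, adjusted p = 0.869).

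Some enzymes that make or consume adenosine fell. Of 8 tested genes of extracellular nucleotides and adenosine 3 fell and 1 rose, and 5 had a change above 0 (median 0.16). With quantile normalization, centred arrays or arrays centred on the kept probe sets, 3 fell and none rose. Besides Nt5e, Ada, which deaminates adenosine, gave 5161, 5466 and 5146 in WT and 3455, 3788 and 3546 in KO (change -0.55, SE 0.054, adjusted p = 6.68e-05), and Adk, which phosphorylates adenosine, gave 4596, 4523 and 4839 in WT and 3861, 3507 and 3327 in KO (change -0.39, adjusted p = 0.00505). The enzyme that makes adenosine and both of these that consume it were thus below their WT values on every KO array. Of 38 genes of one-carbon and nucleotide synthesis 4 fell and none rose (12 fell with centred arrays), among them Prps2, which makes the ribose phosphate for nucleotides, at -0.65.

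The genes of the ATF4 response, which cells use when amino acids are short, fell without any rise: 8 of 31 were lower (median -0.12). Asns, asparagine synthetase, gave 2719, 2869 and 3419 in WT and 1628, 1656 and 1484 in KO (change -0.91, SE 0.092, adjusted p = 8.08e-05). Chac1, which degrades glutathione, gave 134, 75.8 and 125 in WT and 27.7, 38.2 and 38.2 in KO (adjusted p = 0.00275); all KO values lay below their array medians, so the fall is given as at least 2.27-fold. Cth, which makes cysteine, fell by 1.19, and Eif4ebp1, a repressor of translation initiation, by 0.67. Trib3, a pseudokinase, fell by 0.91 (adjusted p = 0.0253), a call lost without WT replicate 1, WT replicate 3, KO replicate 1 or KO replicate 3 (adjusted p up to 0.0936). Atf4 itself gave 5103, 5268 and 5179 in WT and 4263, 4137 and 4663 in KO (change -0.25, adjusted p = 0.0154), a call lost without WT replicate 2 or KO replicate 2 (adjusted p up to 0.0836). Psat1 of serine synthesis fell by 0.36 (adjusted p = 0.0077; 0.0583 by eBayes without trend), while Phgdh, the first enzyme of that route, did not pass (-0.20, adjusted p = 0.318). The kinase PERK, which phosphorylates eIF2 alpha and so raises ATF4 translation, is encoded by Eif2ak3, which gave 3468, 3435 and 3321 in WT and 1594, 1512 and 1662 in KO (change -1.10, SE 0.060, adjusted p = 5.61e-07). Of 21 aminoacyl-tRNA synthetase genes 6 fell and none rose (median -0.14), with changes between -0.24 and -0.41 (11 fell with centred arrays); it had 3, 2 and 3 calls without WT replicate 1, WT replicate 2 and KO replicate 2.

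The promoters of these genes were read for the letters TGATGNA, the core bound by ATF4 with C/EBP partners, on both strands. The letters stood in 10 of 31 promoters of the list (32.3%), in 3 of 7 promoters of its falling genes (42.9%; 6 of the 8 falling genes had a promoter in the table) and in 784 of 10734 promoters of all tested genes (7.3%). The share was 10.8% among all genes that rose and 8.5% among all that fell, so it did not follow the direction over the whole array; it was not tested. The promoters of Asns (chr6:7693160-7693459, minus strand) and Chac1 (chr2:119350992-119351291, plus strand) are shown because both genes fell and hold the letters; they were chosen after their values were seen, and capitals mark the match.
Asns: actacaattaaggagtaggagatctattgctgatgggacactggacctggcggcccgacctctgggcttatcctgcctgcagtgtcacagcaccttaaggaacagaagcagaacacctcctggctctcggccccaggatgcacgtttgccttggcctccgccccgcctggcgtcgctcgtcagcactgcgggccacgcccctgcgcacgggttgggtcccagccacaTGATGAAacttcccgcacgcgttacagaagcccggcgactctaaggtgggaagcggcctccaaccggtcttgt
Chac1: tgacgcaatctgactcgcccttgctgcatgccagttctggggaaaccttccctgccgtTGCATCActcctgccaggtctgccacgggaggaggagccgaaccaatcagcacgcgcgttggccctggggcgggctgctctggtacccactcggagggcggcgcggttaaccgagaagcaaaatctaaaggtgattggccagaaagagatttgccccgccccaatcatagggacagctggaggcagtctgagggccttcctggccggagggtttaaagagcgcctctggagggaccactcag
The match lay 23 bases before the start site in Asns, on the plus strand of the gene, and 192 bases before it in Chac1, on the other.

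Mitochondrial genes shifted by small amounts whose calls depended on scaling. Of 65 oxidative phosphorylation genes 8 fell and none rose, with called changes between -0.18 and -0.33 and a median of -0.12. The count was 6 with quantile normalization and 42 with centred arrays, and it was 1 or 2 without WT replicate 2, WT replicate 3, KO replicate 1 or KO replicate 2 and 4 without WT replicate 1. Of 76 mitochondrial ribosomal proteins 5 fell, led by Mrpl57 at -0.46, and the same centring gave 35 falls. In the TCA cycle 4 of 35 fell, 7 with centred arrays, and 2 without WT replicate 2 or WT replicate 3, with Idh1 giving 2486, 2162 and 2322 in WT and 1762, 1681 and 1706 in KO (change -0.43, adjusted p = 0.00213) and Fh1 giving 6201, 5851 and 7009 in WT and 4809, 5169 and 4618 in KO (change -0.38, adjusted p = 0.00436). Those falls in Idh1 and Fh1 were called in the 18 alternatives that gave them a value; the one without probe sets shared between genes gave none. Glycolysis and the pentose phosphate path gave 2 rises and 3 falls of 36 (1 and 12 with centred arrays), with Pfkfb3, which makes the activator of phosphofructokinase, at 0.45 and Rpia of the pentose path at -0.33; there were 2, 3, 3 and 2 calls without WT replicate 2, WT replicate 3, KO replicate 1 and KO replicate 2.

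Defence against oxidation and metal transport changed in a few genes. Of 35 antioxidant genes 1 rose and 3 fell (none and 10 with centred arrays), with 2 calls without WT replicate 2. Gstt2, a glutathione transferase, gave 859, 1111 and 988 in WT and 489, 534 and 443 in KO (change -1.01, adjusted p = 1.67e-04), next to the related Gstt1 above. Gpx4, which reduces lipid peroxides, fell by 0.49 and Txnrd1, a thioredoxin reductase, was higher by 0.25, both calls lost without WT replicate 2 or KO replicate 2 and that of Txnrd1 also without WT replicate 1 or KO replicate 1 (adjusted p up to 0.0868 for Gpx4 and 0.237 for Txnrd1 over the alternatives). Of 34 genes of iron, copper and zinc handling 2 rose and 1 fell (1 and 5 with centred arrays), the largest being the zinc exporter Slc30a1 at 0.70, and there was 1 call without KO replicate 1. Across all 181 solute carrier genes 10 rose and 10 fell. Slc36a4, an amino acid transporter, gave 2044, 1734 and 1531 in WT and 875, 898 and 761 in KO (change -1.06, adjusted p = 8.82e-05), and Slc43a2, a transporter of large neutral amino acids, fell by 0.61. The zinc transporter gene Slc39a11 fell by 1.06 and the urea transporter gene Slc14a1 by 1.15. Slc15a3, a lysosomal peptide transporter, rose by 0.52 and Slc46a3, a lysosomal carrier, by 0.63. These solute carriers were chosen after their values were seen.

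Protein folding in the endoplasmic reticulum gave 3 rises and 2 falls of 38 genes (1 and 2 with centred arrays), with 2 calls without WT replicate 1 or WT replicate 3 and 3 without KO replicate 2. Edem1, which sends misfolded glycoproteins for degradation, gave 2631, 2400 and 2261 in WT and 3388, 3390 and 3656 in KO (change 0.52, adjusted p = 7.42e-04), opposite to Eif2ak3. The stress sensor Atf6 and the chaperone Hsp90b1 were also higher (0.50 and 0.39), and both calls were lost without WT replicate 1, WT replicate 3 or KO replicate 2, with adjusted p up to 0.0756 and 0.0896 over the alternatives. None of the 52 genes of secretory and Golgi traffic changed by limma at an adjusted p under 0.05 and 8 had an unadjusted p under 0.05. Of 56 ribosome biogenesis genes none changed and 7 had an unadjusted p under 0.05, and of 43 cytosolic ribosomal proteins none and 3. The secretory list had 1 call without KO replicate 2 and the ribosome biogenesis list 1 without WT replicate 1; with centred arrays 9, 12 and, of the ribosomal proteins, 4 fell. Of 37 proteasome genes 7 fell and none rose, by 0.22 to 0.31, a count that was 5 with quantile normalization, 23 with centred arrays, and 4, 0, 2, 3 and 1 without WT replicates 1, 2 and 3 and KO replicates 1 and 2.

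Enzymes that build surface glycans moved both ways, with 5 of 46 higher and 6 lower, and 9 to 11 of them called when 1 array was left out. B3gnt5, which starts lacto-series glycolipids, gave 1645, 1256 and 1417 in WT and 694, 823 and 774 in KO (change -0.91, adjusted p = 2.10e-04). St3gal1, which caps core 1 O-glycans with sialic acid, gave 157, 184 and 159 in WT and 426, 349 and 460 in KO (change 1.29, adjusted p = 0.00215). C1galt1, which makes that core 1 glycan, the structure to which the sorting lectin PNA binds, fell by 0.34 (adjusted p = 0.0193), a call lost without any one WT array or KO replicate 3 (adjusted p up to 0.067). Extl3 of heparan sulfate synthesis rose by 0.61, Chst11 of chondroitin sulfation by 0.65, and St6gal1, the main alpha-2,6 sialyltransferase of B cells, fell by 0.28 (adjusted p = 0.00902; 0.0667 by eBayes without trend). All of these cells had been sorted as PNAhi.

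Lysosomal and ubiquitin genes also changed. Of 53 autophagy and lysosome genes 7 rose and 3 fell, which became 2 and 8 with centred arrays and 2 and 4 with arrays centred on the kept probe sets. Mcoln2, a lysosomal ion channel, gave 413, 521 and 501 in WT and 119, 222 and 89.6 in KO (change -1.82, adjusted p = 0.00208), and Bnip3, a mitophagy receptor, fell by 0.87. Grn, the precursor of lysosomal granulins, gave 592, 711 and 641 in WT and 1194, 1395 and 797 in KO (change 0.76, adjusted p = 0.0184), and Cd68 rose by 0.67. Macrophages make much Grn and Cd68, and the myeloid marker sums given above were higher in the same KO arrays, at 2713 to 3615 against 886 to 1999; the part of such cells was not tested. The call of Grn was lost without WT replicate 1, WT replicate 3, KO replicate 1 or KO replicate 2 (adjusted p up to 0.0691), and the list had 3, 4, 3, 6, 6 and 6 calls as WT replicates 1 to 3 and KO replicates 1 to 3 were left out. Among 40 ubiquitin ligase genes 5 rose and 3 fell (3 and 5 with centred arrays). Nedd4 gave 703, 714 and 691 in WT and 1080, 1056 and 1004 in KO (change 0.57, adjusted p = 0.00159), and Neurl3 fell by 1.60. That list had 4 or 5 calls without any one of the arrays other than KO replicate 2.

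In the nucleus, 25.0% of the lymphoid transcription factors and 9.88% of the chromatin modifiers changed, against 9.72% of all genes tested. The share of the chromatin modifiers was thus near that of all genes. Of 84 tested factors 12 rose and 9 fell (6 and 12 with centred arrays, 7 and 9 with arrays centred on the kept probe sets), and 12 were called without WT replicate 3. Bach2, a repressor of plasma cell genes, gave 7650, 7148 and 8105 in WT and 3397, 3902 and 3657 in KO (change -1.06, SE 0.061, adjusted p = 9.13e-07), and Irf4, which drives plasma cell formation, gave 3124, 3322 and 2988 in WT and 4627, 5296 and 4460 in KO (change 0.61, adjusted p = 9.25e-04). Arid5b, a DNA-binding cofactor, gave 1272, 1092 and 1105 in WT and 557, 564 and 549 in KO (change -1.05, adjusted p = 3.23e-05). Lmo2, an adaptor related to Lmo4, gave 4230, 4018 and 4175 in WT and 6038, 5904 and 6361 in KO (change 0.56, adjusted p = 7.67e-05), so the pair moved in opposite directions. Batf, an AP-1 family factor needed for class switching, fell by 1.32 and Foxp1 by 0.48. Bcl6, the master factor of the germinal center, did not pass (0.043, adjusted p = 0.807).

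Of 81 chromatin modifiers 4 rose and 4 fell, with 4 or 5 calls without any one of the arrays other than KO replicate 3. Hdac9, a class IIa deacetylase, gave 2400, 2020 and 2335 in WT and 1117, 1272 and 1333 in KO (change -0.86, adjusted p = 2.00e-04), and Smarca4, the ATPase of SWI/SNF complexes, gave 5432, 5546 and 6106 in WT and 3817, 3544 and 2838 in KO (change -0.75, adjusted p = 5.66e-04). The remodeller gene Chd3 rose by 1.03. Dnmt1 did not pass (-0.016, adjusted p = 0.901). Of 57 splicing genes 1 rose and 1 fell (none and 7 with centred arrays), and 1 or none was called without any one array. Of 281 zinc finger genes named Zfp or Zscan and the like, 10 rose and 2 fell (4.27%, median 0.097), which became 7 and 12 (median -0.023) with centred arrays. The largest of these, chosen after its value was seen, was Zkscan16, which gave 572, 370 and 447 in WT and 57.1, 95.4 and 70.7 in KO (change -2.61, adjusted p = 1.09e-05).

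Some cell division genes fell by small amounts. Of 84 genes of G2/M and mitosis 9 fell and none rose (median -0.094), and 31 fell with centred arrays; 5, 4 and 4 were called without WT replicate 1, WT replicate 3 and KO replicate 2. Ccna2, the cyclin of S and G2 phase, gave 6078, 5823 and 6231 in WT and 4151, 4416 and 4521 in KO (change -0.47, SE 0.055, adjusted p = 2.68e-04), and Cdc25b, the phosphatase that opens mitosis, gave 6023, 5793 and 6375 in WT and 4527, 4818 and 4637 in KO (change -0.38, adjusted p = 0.00107). Ccna2 was called under all 19 alternatives and Cdc25b under the 18 that gave it a value. The kinetochore and centromere genes named Cenp gave 4 falls of 20 under each of the scalings tried, led by Cenpv (-0.80) and Cenps (-0.63), which were chosen after their values were seen. Of 67 genes of G1/S and replication 2 fell, 18 with centred arrays and 7 with arrays centred on the kept probe sets, with Pola1 of DNA polymerase alpha falling by 0.36 and Pold2 by 0.42. There were 4 calls without WT replicate 1 and 1 without any other array, the call of Pold2 was lost without any one array (adjusted p up to 0.188), and Pcna did not pass (-0.14, adjusted p = 0.266).

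Brakes of the cycle and death genes moved both ways. Among 31 D cyclins, CDK inhibitors and RB family genes 1 rose and 4 fell (1 and 9 with centred arrays). Cdkn1b, the inhibitor p27 and a known FOXO target, gave 1346, 1180 and 1213 in WT and 967, 858 and 841 in KO (change -0.49, adjusted p = 0.0125; 0.0507 without WT replicate 1). Cdkn1a, the inhibitor p21, gave 176, 166 and 191 in WT and 337, 296 and 557 in KO (change 1.09, adjusted p = 0.0144; 0.0599 without WT replicate 2). That list held 3, 2, 3 and 8 calls without WT replicate 1, WT replicate 2, KO replicate 2 and KO replicate 3. Of 39 BCL2 family and cell death genes 3 rose and 1 fell, which became 1 and 6 with centred arrays and 1 and 5 with arrays centred on the kept probe sets. The share called, 10.3%, was near the 9.72% of all genes. Bcl2l11, which encodes the death protein BIM and is another known FOXO target, gave 3284, 3153 and 2850 in WT and 2332, 2220 and 2216 in KO (change -0.45, adjusted p = 0.00279), and Pdcd4 rose by 0.37. Without WT replicate 2 or KO replicate 3 the list had 2 calls. Of 68 DNA repair, switching and hypermutation genes 1 rose and 4 fell (1 and 7 with centred arrays), with the glycosylase Neil1 at -0.42 and Fanca at 0.41, and there were 2 or 3 calls when any 1 array was left out. The share called, 7.35%, lay under the 9.72% of all genes.

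Among immune genes, no antigen presentation gene passed and several co-signals did. None of 15 MHC class II and 16 MHC class I genes changed by limma, with 1 and 2 at an unadjusted p under 0.05; 1 class II gene rose with quantile normalization and 2 class I genes fell with centred arrays. Cd74 (-0.001, adjusted p = 0.995) and B2m (-0.074, adjusted p = 0.517) did not pass. None of 41 interferon response genes changed, 8 had an unadjusted p under 0.05 and the median was -0.15; with centred arrays 6 fell, and there were 1 and 3 calls without KO replicates 1 and 2. Of 17 costimulatory and coinhibitory genes 4 rose and 2 fell (4 and 5 with centred arrays), with 3 calls without WT replicate 1. Icosl, the ligand of ICOS, gave 4561, 4619 and 4417 in WT and 5474, 5836 and 5925 in KO (change 0.34, adjusted p = 0.00298), and Cd86 gave 2295, 2331 and 2304 in WT and 3156, 2785 and 3326 in KO (change 0.41, adjusted p = 0.00359). Pdcd1lg2, the ligand PD-L2, fell by 0.96, a call lost without WT replicate 1, WT replicate 3 or KO replicate 2 (adjusted p up to 0.0568). Of 21 Fc and complement receptors and lectins 2 rose and 2 fell. Fcer2a, the receptor CD23, gave 2107, 1957 and 2274 in WT and 1224, 1217 and 1284 in KO (change -0.76, adjusted p = 4.58e-05), while Cr2, the complement receptor CD21, gave 2858, 3015 and 2748 in WT and 5105, 4524 and 4740 in KO (change 0.74, adjusted p = 6.55e-05). Cd55, which shields cells from complement, fell by 1.15.

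Genes of other B cell states rose more often than they fell. Of 15 marginal zone genes 8 rose and none fell (median 0.74), and of 21 plasma cell genes 9 rose and 1 fell (median 0.34). With centred arrays 7 marginal zone genes rose and 1 fell, and 8 plasma cell genes rose and 4 fell. Slpi, a secreted protease inhibitor, gave 4418, 3422 and 3979 in WT and 8000, 8066 and 9411 in KO (change 1.11, adjusted p = 2.48e-05), and Eaf2, an elongation factor, gave 5480, 5410 and 5487 in WT and 3526, 4198 and 4022 in KO (change -0.48, adjusted p = 5.23e-04). The joining chain Jchain of secreted antibody did not pass (-0.057, adjusted p = 0.522).

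Called probe sets with no gene symbol were mostly rises. Of the 3273 with no symbol 250 changed (7.64%, against 7.69% with 1 symbol), 174 upward and 76 downward, so that 69.6% of the calls were higher in KO against 49.2% with 1 symbol. With centred arrays these shares were 42.2% and 18.8%, so the majority of rises did not hold there, and with quantile normalization 59.9% and 43.2%. They were also dimmer, with a median mean signal of 180 against 501, and their median log2 change was 0.20 against 0.020. The difference between the classes was not tested. Of the 592 with several symbols 13 rose and 25 fell. The largest fall among them was of 1442544_at, which gave 9365, 10173 and 11704 in WT and 1627, 1069 and 1403 in KO (change -2.94, SE 0.13, adjusted p = 1.04e-07). Probe set 1441657_at gave 2398, 2403 and 2151 in WT and 699, 692 and 658 in KO (change -1.76, adjusted p = 1.04e-07), and 1427932_s_at and 1435137_s_at fell by 1.77 and 1.66. Among rises, 1439893_at, annotated to both Gm43915 and Mical3, gave 758, 579 and 519 in WT and 2185, 1889 and 1495 in KO (change 1.58, adjusted p = 6.14e-05), and 1445984_at, 1459170_at and 1424227_at rose by 1.60, 1.35 and 1.21. What these transcripts are was not analysed here.

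Taking 1 probe set per gene hid some changes. Of 5125 symbols with more than 1 kept probe set 670 had at least 1 called, but in 132 of them all were called in the same direction. Among the 670, 199 were called only by a probe set other than the brightest. There were 4 genes that had called probe sets in both directions, namely Ighm, Morrbid, Nsmce1 and 4932438A13Rik. Ighm is the constant region gene of IgM. Its brightest probe set, 1427351_s_at, gave 7534, 6490 and 7885 in WT and 8887, 9868 and 9898 in KO (change 0.39, adjusted p = 0.00493; 0.0516 by eBayes without trend), and 1427329_a_at rose by 0.61. By contrast 1427869_at gave 10202, 9484 and 11016 in WT and 2766, 3138 and 2618 in KO (change -1.85, SE 0.080, adjusted p = 1.04e-07), and 4 other probe sets of the gene fell by 1.85 to 2.38. The remaining 2 did not pass. The direction for Ighm therefore depended on the probe set, and the annotation gives no isoform for them. For Morrbid, a long noncoding RNA next to Bcl2l11, 1444524_at rose by 0.83 and 1456861_at fell by 1.70. Nsmce1, of the SMC5 and SMC6 complex, fell by 0.62 and 0.56 in its bright probe sets and rose by 0.90 in a dim one. For 4932438A13Rik, 1457535_at gave 843, 619 and 775 in WT and 39.5, 36.2 and 63.6 in KO (change -3.98, adjusted p = 9.92e-07), 1444660_at rose by 0.65, and 2 others did not pass.

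**Figure D4:**
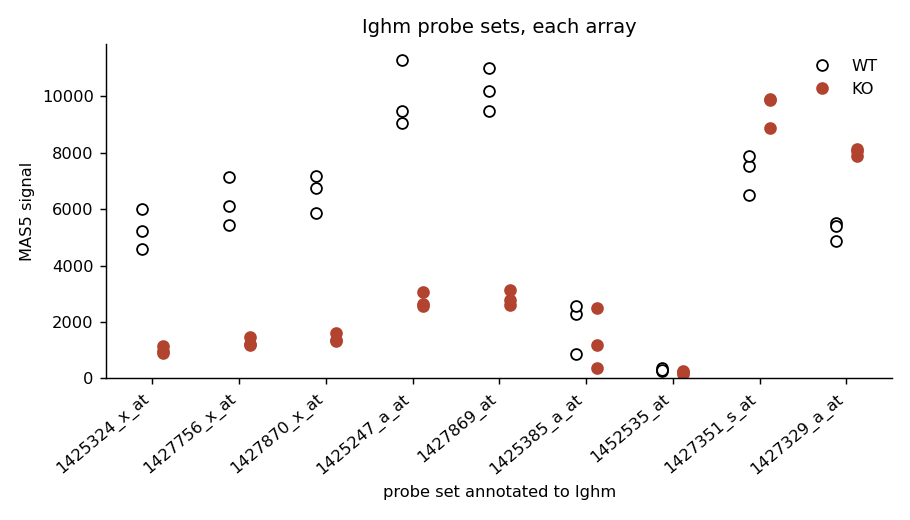
MAS5 signal of the 9 kept probe sets annotated to Ighm, with open points for the 3 WT arrays and filled points for the 3 KO arrays. From left to right, 5 probe sets fell, 2 do not pass, 1 of which is nevertheless lower on every KO array, and 2 rose.

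The smallest adjusted p of all belonged to an unnamed gene model beside the targeted gene. In the gene order of RefSeq GRCm38.p6, Gm34303 is the tested gene directly after Foxo1 on chromosome 3, and it was singled out after its values were seen. It gave 58.9, 69.9 and 75.6 in WT, 2393, 3200 and 3360 in KO and 2139, 1710 and 2020 in HET, so KO was 43.8-fold above WT (change 5.40, SE 0.14, adjusted p = 1.31e-09). The HET arrays, with a single floxed allele, lay below all KO arrays and far above all WT arrays, while the brightest Foxo1 probe set gave 3633, 3581 and 3479 in HET, between WT and KO. Gm30173, the next model, was below the array median on all 3 WT arrays and at least 2.08-fold higher in KO (adjusted p = 0.00887). On the other side, Mgst2, a microsomal glutathione transferase, gave 245, 321 and 267 in WT and 119, 123 and 97.5 in KO (change -1.27, adjusted p = 3.47e-04), and Noct, a circadian phosphatase of NADP, fell by 0.86. Among the 10 tested genes on each side, Ndufc1, Setd7 and Exosc8 also fell, by 0.21, 0.30 and 0.25, and Nhlrc3 rose by 0.47. The calls of Setd7, Exosc8 and Nhlrc3 were lost when some single arrays were left out: WT replicate 3 for all 3, WT replicate 2 and KO replicate 3 for Setd7 and Exosc8, KO replicate 2 for Exosc8 and Nhlrc3, and WT replicate 1 and KO replicate 1 for Setd7, with adjusted p up to 0.0958 for Setd7, 0.367 for Exosc8 and 0.0861 for Nhlrc3. Ndufc1 was lost by eBayes without trend and without shared probe sets (adjusted p up to 0.11). Chromosome 3 as a whole had 53 of 484 genes changed, within the range of the other chromosomes, which ran from 6.50% on chromosome 8 to 13.7% on chromosome 1. Whether the floxed allele, its flanking strain background or the loss of FOXO1 goes with these values cannot be told apart in this design.

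**Figure D5:**
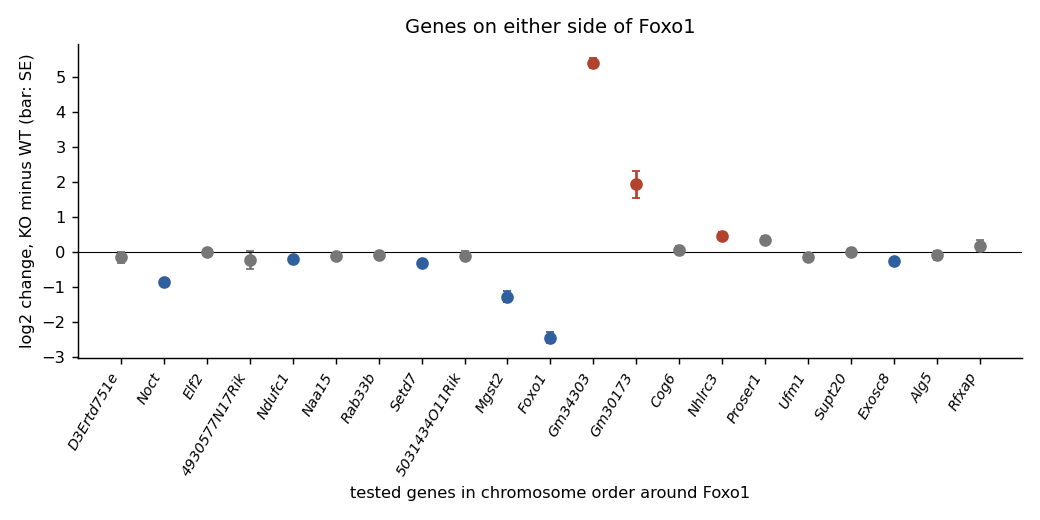
Log2 change, KO minus WT, of the 10 tested genes on each side of Foxo1 in chromosome order, with bars for the SE; red genes rose, blue fell and grey did not pass. Gm34303 stands at 5.40 and Foxo1 at -2.45, while most other neighbours lie within 0.50 of 0.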

How the data were processed

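The submitters' processing notes name MAS5 (version not given in the sources used here) for the 9 Affymetrix mouse arrays, and the authors deposited a linear signal intensity for 45101 probe sets, 64 of them controls. Each array had a 2% trimmed mean of 500, and array medians were 42.9 to 48.0. RNA was amplified before labelling, per the labels' protocols. No further normalization was applied. Signals were taken as log2(signal + 2.09), the 10th percentile of all signals. A linear model in limma 3.58.1 (lmFit, eBayes with trend, R 4.3.3) took the kept probe sets of the 9 arrays, two-sided, with Benjamini-Hochberg adjustment over all 23344; every adjusted p comes from this fit or, where an alternative is named, from limma under it. The platform annotation gave 34945 probe sets 1 symbol. The precision is limited by the number of arrays. The model was tested on simulated data with known changes.

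Genes are named by a rule: the 12 largest rises and 12 largest falls of called genes with a mean signal of at least 359 and separate groups, up to 4 called members of each list by adjusted p and 2 bright ones that did not pass, and the 4 largest rises and falls without a single symbol. Other list members and genes were chosen after their values were seen. The comparison, lists and rule were chosen with earlier results of these data known. Lists had no test of their own. Some listed genes were not analysed here, and 1 list is not reported here.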

Additional observations from a re-analysis of the deposited data

How the results depend on the processing

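Alternatives were no offset or an offset of 16, quantile normalization, median centring, no or a stricter filter, the 6 KO and WT arrays only, eBayes without trend or robust, a block for Xist level (which follows the animal's sex), no probe sets shared between genes, averaging all probe sets per gene, leaving out each array, and, added after seeing the data, centring on the kept probe sets. No paired analysis was possible because no numbers in the sample titles are shared between genotypes. Centring on the median of all probe sets gave 2953 changed probe sets (611 up and 2342 down), 1704 genes (1366 down) and 473 listed genes. Without trend, 550 probe sets fell, 655 genes changed (302 down) and 169 listed genes were called. Leaving out 1 array gave 976 to 1512 probe sets (460 to 738 up, 503 to 791 down), 590 to 865 genes (282 to 413 up, 300 to 452 down), 176 to 230 listed genes, and a Foxo1 change of -2.68 to -2.22. Of the 1004 genes, all kept their sign where tested, apart from 10 turned without shared probe sets and 11 with the mean of probe sets. Among named genes, the sign turned without shared probe sets for Ighm (-1.85), Nsmce1 (0.90) and Uqcrq (0.64), and with the mean for Ighm (-1.19), Il10ra (-0.19), Morrbid (-0.43), Psma1 (0.025), Snrpd3 (0.24) and Uqcrq (0.16); the cause was not tested. Of 237 named and called genes, 145 were called under every alternative that gave them a value and 166 in every fit with 1 array left out. Of 61 lists, 50 had a count that moved by over 1.5 times somewhere.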
